A study of Mus musculus with 12 samples.

Results

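Unstimulated wild-type skin fibroblasts were represented by 3 of the 12 RNA-seq libraries of the series, the WT control group, chosen by their labels (genotype WT, no stimulation). Each library came from a culture of primary fibroblasts from the skin of C57BL/6 mice. The cells were grown in DMEM with 10% fetal bovine serum and used within a few passages, and in the sources they were isolated from abdominal skin by enzymatic digestion. They were plated for 24 h, starved for 24 h and then kept for a further 24 h without TGF-β2. The labels do not state what the medium of the last 24 h contained, nor the age or sex of the mice, and they do not say whether the 3 cultures came from separate animals. Levels are therefore described for 3 cultures (n = 3), and no group is compared with another. Levels are given as RPKM, reads counted on a gene divided by the length of its merged exons and by the total count of the library, so that genes of different length can be set side by side. Unless stated otherwise, a trio of values gives cultures 1, 2 and 3 in that order, an error is the SD over the 3 cultures, and a gene is called expressed at a mean of at least 1 RPKM.

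Dermal fibroblasts build and renew the connective tissue of the skin. They secrete fibrillar collagens, proteoglycans and elastic fibre proteins, and they sense their surroundings through integrins and growth factor receptors. On a stiff surface or under TGF-β they take on features of the myofibroblast, a contractile cell marked by smooth muscle α-actin, the product of Acta2. Resting fibroblasts of intact skin instead express genes such as Dcn, Gas1 and Pi16. NADPH oxidase 4, the product of Nox4, makes hydrogen peroxide and is the enzyme the series was built around.

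The libraries held 35118344, 38128961 and 40320099 counts on 21556 genes, and 3 counts on a gene of 2 kb correspond to 0.0427, 0.0393 and 0.0372 RPKM. Culture 3 stood apart from the others. Among the 10597 expressed genes, 41 differed at least 2-fold between cultures 1 and 2, against 283 between cultures 1 and 3 and 364 between cultures 2 and 3. Pearson's r of log2 RPKM across these genes was 0.994 for cultures 1 and 2, 0.980 for cultures 1 and 3 and 0.975 for cultures 2 and 3, as a description across genes, which are not independent. Values are therefore given culture by culture wherever culture 3 bears on them.

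The promoter windows of 3 genes and 2 sites in Acta2 are shown. Acta2 was the most abundant gene of the cells. The 3 genes are interferon-stimulated or cell cycle genes for which culture 3 stood apart. The sequences are from RefSeq on GRCm38.p6, 5′ to 3′ on the strand of the gene, and distances are counted back from the RefSeq start. Capitals mark the CArG box in Acta2, the site of serum response factor (CC, 6 bases of which at most 1 is G or C, then GG), the interferon-stimulated response element in Isg15 and Bst2 (GAAA, any 2 bases, GAAA), and CCAAT, bound by NF-Y, in Ccnb2. Both Acta2 sites lie within the first exon of another annotated Acta2 transcript that starts further upstream.
Acta2, chr19:34255438-34255467, minus strand: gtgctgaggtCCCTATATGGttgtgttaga
Acta2, chr19:34255388-34255417, minus strand: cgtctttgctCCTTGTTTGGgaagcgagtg
Isg15, chr4:156200819-156201068, minus strand: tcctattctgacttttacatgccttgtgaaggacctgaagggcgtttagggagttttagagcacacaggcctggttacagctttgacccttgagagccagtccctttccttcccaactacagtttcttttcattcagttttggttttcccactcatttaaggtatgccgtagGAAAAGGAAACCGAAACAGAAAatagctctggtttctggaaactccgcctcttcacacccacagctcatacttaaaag
Bst2, chr8:71537473-71537722, minus strand: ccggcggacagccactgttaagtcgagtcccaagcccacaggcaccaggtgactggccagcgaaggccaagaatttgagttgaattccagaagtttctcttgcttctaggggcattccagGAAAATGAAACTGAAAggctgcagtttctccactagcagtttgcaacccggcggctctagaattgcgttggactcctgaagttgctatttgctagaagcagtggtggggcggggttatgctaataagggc
Ccnb2, chr9:70421555-70421804, minus strand: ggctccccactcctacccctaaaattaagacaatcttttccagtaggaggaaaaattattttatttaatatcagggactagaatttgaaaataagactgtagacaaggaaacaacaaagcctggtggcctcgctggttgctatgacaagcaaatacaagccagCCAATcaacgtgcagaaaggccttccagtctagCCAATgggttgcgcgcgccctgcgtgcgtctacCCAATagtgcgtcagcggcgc

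The CArG boxes of Acta2 began 84 and 34 bases before the start, and such a box was present in 8.65% of the 27025 windows of the same 250 bases, 1 for each gene symbol, that were searched on both strands. Isg15 held 3 overlapping copies of the interferon-stimulated response element, beginning 78, 72 and 66 bases before the start, and Bst2 held 2 that overlapped, at 130 and 124 bases. This motif was present in 3.04% of all windows. Ccnb2 held CCAAT 3 times, at 87, 54 and 21 bases, and CCAAT was present in 34.5% of all windows. These are matches of letters and do not show that a factor was bound. Promoters of Col1a1, Tagln and Thbs1 were not used here.

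The 4 genes that mark the cells were all expressed. Col1a1, the α1 chain of type I collagen, was at 2463, 2366 and 2116 RPKM (2315 ± 179, rank 7 of all genes). Acta2 was at 6016, 5945 and 5066 RPKM (5675 ± 529) and ranked first. Pdgfra, the platelet-derived growth factor receptor of mesenchymal cells, was at 37.2, 32.4 and 49.97 RPKM (39.9 ± 9.06, rank 1434). Prrx1, a homeobox factor of limb and body wall mesenchyme, was at 43.0, 39.8 and 46.1 RPKM (43.0 ± 3.14, rank 1318). Without culture 3 the means were 2414 RPKM for Col1a1, 5980.3 RPKM for Acta2, 34.8 RPKM for Pdgfra and 41.4 RPKM for Prrx1. All 14 pan-fibroblast markers were expressed, from Lum at 7.21 RPKM to Col1a1. Thy1, the surface glycoprotein CD90, was at 569, 511 and 485 RPKM and Vim, the intermediate filament of mesenchymal cells, at 1151, 1177 and 1309 RPKM. Dcn, the collagen-binding proteoglycan decorin, was the marker with the largest ratio between cultures, at 265, 202 and 514 RPKM. The markers of the label were thus present in all 3 cultures.

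A few genes made up much of the RNA. Of 21556 genes, 5264 had no count in any culture. Of the 10597 expressed genes, 5450 had a mean between 1 and 10 RPKM, 4693 between 10 and 100, 432 between 100 and 1000, and 22 were above 1000. Those 22 genes took 15.1% ± 0.97 of all RPKM. The 10 genes with most counts took 11.3%, 11.04% and 10.1% of the counts in cultures 1, 2 and 3 (mean 10.8% ± 0.62). The top 100 took 29.8% ± 1.22.

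**Figure D1:**
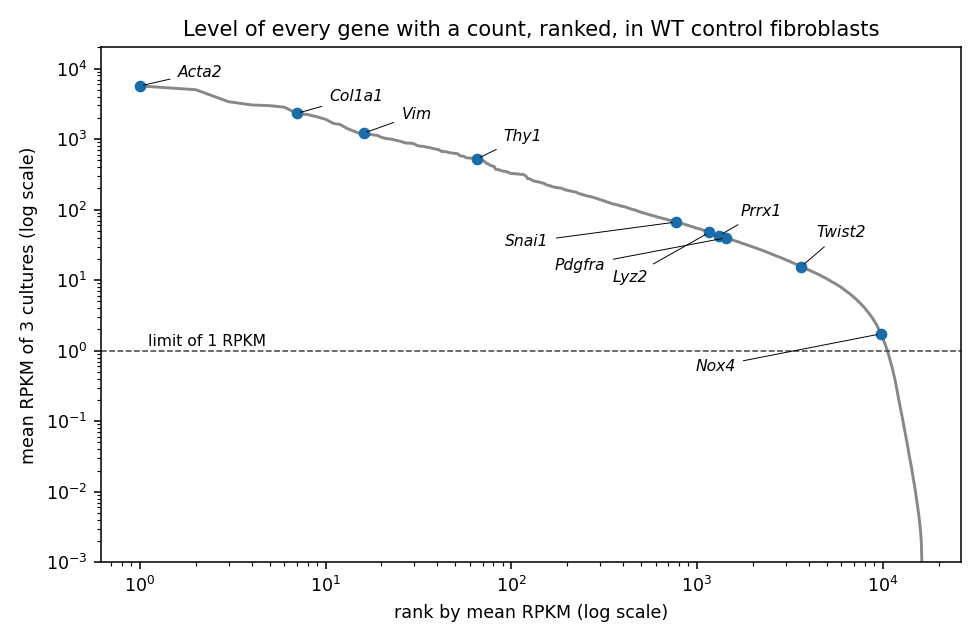
Each gene with a count was ranked by its mean RPKM over the 3 cultures (both axes logarithmic), with 10 genes marked and the limit of 1 RPKM as a dashed line. Acta2 sits at rank 1 and Col1a1 at rank 7, while the regulators Snai1, Prrx1 and Twist2 sit between 10 and 100 RPKM and Nox4 just above the limit, at rank 9806.

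The 20 most abundant genes were those of a contractile and matrix-making cell. Contractile and cytoskeletal genes among them were Acta2, Tagln (transgelin, 3629, 3458 and 3086 RPKM), Actb (β-actin, 2207, 2363 and 1635 RPKM), Myl9 (myosin regulatory light chain, 1289, 1228 and 935 RPKM), Tmsb4x (thymosin β4, which binds actin monomers, 1255, 1116 and 1013 RPKM) and Vim. Matrix genes were Col1a1, Col1a2, Col3a1, Fn1, Bgn, Sparc, Postn and Thbs1, which encodes the matricellular protein thrombospondin 1 and was the second gene, at 5168, 5413 and 4479 RPKM. By counts rather than per length Thbs1 came first, with 1061331, 1206990 and 1056135 counts, or 2.94% of all counts on average. Serpinh1, the collagen chaperone HSP47, and Timp1, an inhibitor of matrix metalloproteinases, were also among the 20. The small calcium-binding proteins S100a6 and S100a4 and the galectin Lgals1 were among them too. Tagln shares 94 bases of exon with Pcsk7 on the opposite strand, and whether the counting used strand is not stated.

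**Figure D2:**
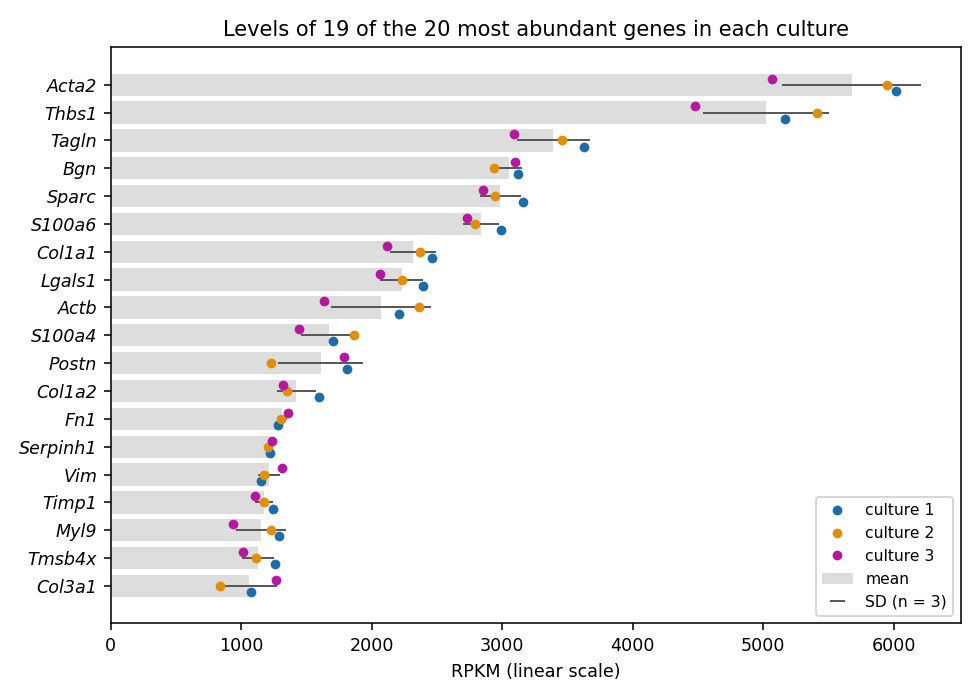
Of the 20 genes of highest mean RPKM, 19 are plotted on a linear axis, with a grey bar for the mean, a line for the SD (n = 3) and a point for each culture. Culture 3 is the lowest point for Acta2, Thbs1, Tagln, Actb, Myl9, Tmsb4x, Col1a1, Col1a2, Sparc, S100a6, S100a4, Lgals1 and Timp1. It is the highest for Vim, Fn1, Col3a1 and Serpinh1.

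Genes of the extracellular matrix, its proteases and their inhibitors made up 13.7% ± 0.40 of all RPKM, with 151 of 281 listed genes expressed and 13 above 1000 RPKM. Among 44 collagen chains 25 were expressed and 12 were above 100 RPKM. Besides type I collagen the leading chains were Col3a1, which co-assembles in skin fibrils (1074, 838 and 1268 RPKM), Col5a2, which controls fibril diameter (1053, 983 and 936 RPKM), and Col4a1, a basement membrane chain (599.8, 586 and 442 RPKM). Per length, Col1a1 exceeded Col1a2 by 1.54, 1.75 and 1.603 times, where type I collagen holds the α1 and α2 chains in unequal number. Col5a3, Col15a1, Col27a1 and Col28a1 were the expressed chains whose highest culture was at least 2-fold above the lowest, and Col28a1 was at 4.11, 5.67 and 11.6 RPKM. Across all expressed genes 445, or 4.2%, varied this much. Col9a1 and Col25a1 were among the chains at or near 0.

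Small leucine-rich proteoglycans were led by Bgn, biglycan, at 3123, 2939 and 3098 RPKM. Prelp stood at 500.0, 457 and 534 RPKM, and Fmod, fibromodulin, at 98.9, 89.1 and 73.2 RPKM. Of the 12 expressed proteoglycans 6 varied at least 2-fold. Aspn, asporin, was at 70.3, 41.4 and 119.8 RPKM and Ogn, osteoglycin, at 30.03, 19.1 and 50.4 RPKM, and for both culture 2 was lowest and culture 3 highest, as for Dcn. Bgn exceeded Dcn by 11.8, 14.6 and 6.02 times per length. All 22 genes of elastic fibres and microfibrils were expressed. Fbln2, fibulin 2, at 960.3, 1048 and 1017 RPKM, and Lox, the lysyl oxidase that cross-links collagen and elastin, at 872, 927 and 839 RPKM, were the highest, and both were even across cultures. Eln, elastin itself, was far lower, at 12.4, 9.59 and 24.5 RPKM, and Mfap4 stood at 19.6, 13.9 and 28.9 RPKM.

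Matricellular and adhesive glycoproteins summed to 17240.5, 16389 and 15861 RPKM, 5.35% ± 0.208 of all RPKM, and 36 of 44 were expressed. Sparc, which binds collagen, was at 3156, 2940.2 and 2853 RPKM, Fn1, fibronectin, at 1281, 1308 and 1355 RPKM, and Postn, periostin, at 1807, 1231 and 1789 RPKM. Ccn2, connective tissue growth factor, was at 1155, 1190 and 731 RPKM, with culture 3 below the other 2 cultures. Tnxb, tenascin X of resting dermis, was low at 0.933, 1.149 and 4.04 RPKM and highest in culture 3.

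Among proteases Mmp14, a membrane-bound collagenase, was highest, at 251, 216 and 168 RPKM, followed by Bmp1, the procollagen C-proteinase, at 175, 166 and 169.9 RPKM. Mmp2, gelatinase A, which MMP14 activates, was at 118, 82.1 and 130.3 RPKM. Of 79 listed proteases 37 were expressed and 13 had no count. Of all 21556 genes 10597 were expressed and 5264 had no count. Among the 72 genes of the inhibitor list, which holds serpins that do not inhibit proteases such as Serpinh1, 19 were expressed. Timp1 was at 1245, 1170.4 and 1107 RPKM, Timp3 at 831, 856 and 1133 RPKM and Serpinf1, the anti-angiogenic factor PEDF, at 963, 826 and 939.8 RPKM. Serpina3n, an acute phase inhibitor, was at 7.53, 5.37 and 23.2 RPKM, so that culture 3 stood above both others.

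Of the 121 genes of the growth factor list 49 were expressed and 7 were above 100 RPKM. The list also holds the proteinase Bmp1, which is 1 of the 7. Csf1, the macrophage colony-stimulating factor, was the most abundant ligand, at 907, 949 and 778 RPKM (878 ± 89.1, rank 28). Gas6, the ligand of the receptor AXL, was at 675, 665 and 1045 RPKM. The TGF-β family was represented by Inhba, the activin A subunit, at 133, 152 and 116 RPKM and by Tgfb3 at 111, 119 and 103 RPKM. Culture 3 was the highest for both Gas6 and the low ligand Wnt2 (2.55, 2.70 and 9.43 RPKM), and Wnt2 was at least 2-fold above both others there. Among secreted antagonists and binding proteins the leaders were Fstl1 (623, 592 and 656 RPKM), the insulin-like growth factor binding proteins Igfbp7 (556, 512 and 458 RPKM) and Igfbp6 (302, 292 and 379 RPKM), and the Wnt antagonist Sfrp1 (259, 268 and 442 RPKM).

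Chemokines that draw monocytes led the cytokine list, in which 26 of 113 genes were expressed. Ccl7 was at 321, 269 and 430.4 RPKM and Ccl2 at 145, 133 and 263 RPKM, both highest in culture 3, while Cxcl14 was even at 228, 208 and 221 RPKM. Il33, an alarmin, was at 3.26, 1.53 and 9.75 RPKM, with culture 2 at least 2-fold below and culture 3 at least 2-fold above the others. Il2, Il3, Il5, Il13 and Il21 had at most 3 counts in any culture. Complement and acute phase genes summed to 288, 267 and 484 RPKM, and 9 of their 15 expressed members were at least 2-fold higher in culture 3 than in both other cultures, as were 1.27% of all expressed genes. Ptx3, pentraxin 3, was highest, at 112, 119.9 and 162 RPKM, Serping1, the C1 inhibitor, was at 62.2, 53.5 and 93.9 RPKM and C3 at 4.27, 5.91 and 17.2 RPKM. C1qa, a complement gene of macrophages, was at 4.38, 2.14 and 14.3 RPKM, beside the macrophage markers given further on.

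Receptors formed a broad class of moderate level. Of 453 listed receptor genes 204 were expressed, 21 exceeded 100 RPKM and none reached 1000. Axl led the receptor tyrosine kinases, at 275, 308 and 238 RPKM, followed by Pdgfrb at 174, 159.5 and 168 RPKM. Pdgfrb exceeded Pdgfra by 4.68, 4.92 and 3.37 times per length. The collagen receptor Ddr2 was at 65.0, 61.0 and 77.1 RPKM and Fgfr1 at 62.4, 57.6 and 74.6 RPKM. Kit, Flt3 and Alk, receptors of other lineages, were at or near 0.

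Receptors of the TGF-β superfamily were moderate, with 11 of 14 expressed. None of the 11 varied 2-fold, near the 4.2% of all expressed genes that did, and culture 3 was the highest for 10 of them, where it was for 54.1% of all. After TMM scaling it was the highest for 7 of the 11 and for 38.2% of all. Tgfbr2, which binds the ligand, was at 31.5, 24.7 and 36.1 RPKM, its partner Tgfbr1 at 12.3, 11.8 and 16.8 RPKM and the co-receptor Tgfbr3, betaglycan, which presents TGF-β2, at 41.1, 36.9 and 46.3 RPKM. Eng, endoglin, was the highest of the list, at 54.2, 40.8 and 52.1 RPKM, with 61 bases of exon shared with Fpgs on the opposite strand, and the type I receptor Acvr1c had no count. In the Wnt, Notch and Hedgehog list 21 of 27 were expressed. Lgr5, the R-spondin receptor, was its leading gene, at 66.7, 59.2 and 159 RPKM, and Gas1, a Hedgehog co-receptor that rises in growth-arrested fibroblasts, stood at 16.4, 10.6 and 45.1 RPKM. For both, culture 3 was at least 2-fold above the other cultures.

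Cytokine receptors included Tnfrsf12a, the TWEAK receptor, at 269.8, 266 and 194 RPKM and Tnfrsf1a, a TNF receptor, at 112, 102 and 129.6 RPKM. Itgb1, the common β1 integrin chain, was the most abundant receptor gene, at 746, 677 and 572 RPKM, with Itga5, its partner for fibronectin, at 341, 393 and 222 RPKM and Itga11, a collagen-binding chain of fibroblasts, at 142, 99.98 and 91.9 RPKM. All 3 were lowest in culture 3. Among 193 G protein coupled receptors 52 were expressed, F2r, the thrombin receptor PAR1, was at 209.6, 215 and 145 RPKM, and no other exceeded 100 RPKM. In the list of other surface proteins and matrix receptors, Thy1, Cd81 (329.5, 326 and 318 RPKM), Ly6a (255.9, 248 and 457 RPKM) and Cd248, endosialin (205, 205 and 213 RPKM), were the highest, and Ly6a, the stem cell antigen SCA-1, was highest in culture 3.

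The median level of transcription factors and cofactors was near that of all expressed genes. Of 341 listed regulators 210 were expressed, against 10597 of all 21556 genes, and 5 exceeded 100 RPKM. The median among expressed regulators was 9.10 RPKM, where it was 9.57 RPKM over all expressed genes. It was 13.7 RPKM for receptors and 50.6 RPKM for matrix genes. The mesenchymal list was led by Snai1, a repressor of epithelial genes (66.2, 69.7 and 64.5 RPKM), Creb3l1, which acts on collagen secretion (68.4, 56.8 and 67.7 RPKM), Prrx2 (53.1, 59.0 and 62.3 RPKM), Klf6 (49.6, 50.4 and 42.8 RPKM) and Prrx1. Tcf21, Foxd1 and Six2 had at most 3 counts in any culture.

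Hox genes carry positional identity in fibroblasts, and 23 of 39 were expressed. The highest were Hoxc8 (51.7, 66.6 and 69.7 RPKM), Hoxb9 (39.4, 36.0 and 38.8 RPKM), Hoxc6 (34.9, 38.4 and 39.97 RPKM), Hoxc10 (15.5, 12.9 and 15.4 RPKM) and Hoxc13 (9.05, 9.82 and 7.81 RPKM). Hoxa13, Hoxd10, Hoxd11, Hoxd12, Hoxd13, Hoxb1 and Hoxd1 had at most 3 counts in every culture.

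Factors downstream of signalling were present throughout. Ctnnb1, β-catenin, was at 113, 114 and 116 RPKM, Yap1 at 80.4, 85.5 and 59.1 RPKM and Tead1, its DNA-binding partner, at 50.03, 59.5 and 56.4 RPKM. Yap1 was lowest in culture 3. Of the immediate early list 18 of 20 were expressed, Ier3 at 61.4, 69.8 and 87.7 RPKM and Fosl2 at 45.4, 41.9 and 42.5 RPKM, while Atf3, a stress-induced factor, was at 1.72, 1.27 and 4.96 RPKM with culture 3 at least 2-fold above the others. Id3, an inhibitor of basic helix-loop-helix factors (229.8, 266 and 229.6 RPKM), and the stress factors Atf5 (238, 217 and 256.1 RPKM, 164 bases shared with Il4i1 and Nup62) and Atf4 (235, 222 and 238 RPKM) were the highest of the remaining families. Rarg (25.8, 26.6 and 27.5 RPKM) and Nr1d1, the clock repressor REV-ERBα (24.7, 26.5 and 25.2 RPKM), followed Nr4a1 (43.3, 37.6 and 28.8 RPKM) among 24 expressed nuclear receptors.

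The contractile programme was high without added TGF-β2. Its 34 genes summed to 22345, 22674 and 18510.5 RPKM, 6.87% ± 0.743 of all RPKM, with 24 above 100 RPKM and 33 expressed. Acta2 exceeded Actb by 2.73, 2.52 and 3.10 times per length, and it exceeded Actg2, the enteric smooth muscle actin, by 18.4, 15.8 and 20.7 times. Myh11, the smooth muscle myosin heavy chain, was expressed far lower than Acta2, at 40.9, 46.3 and 35.6 RPKM. Desmin was low and uneven, with Des at 6.40, 2.99 and 1.02 RPKM. Culture 3 was the lowest of the cultures for 29 of the 33 expressed genes, where it was the lowest for 27.9% of all expressed genes. With library sizes scaled by TMM it was lowest for 31 of the 33 and for 42.4% of all. The median log2 ratio of culture 3 to the mean of the other 2 cultures was -0.24 in this list and 0.07 over all expressed genes.

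All 24 myofibroblast and fibrosis genes were expressed and 8 exceeded 1000 RPKM, among them Acta2, Bgn, Col1a1, Postn, Fn1, Col3a1 and Ccn2. The 24 genes summed to 21747, 20716 and 19100.3 RPKM. Lrrc15, a surface marker of activated fibroblasts, was at 10.8, 5.11 and 5.29 RPKM, with culture 1 at least 2-fold above both others. Nox4 itself was at 1.48, 1.31 and 2.42 RPKM on 211, 203 and 398 counts and ranked 9806, close to the limit for expression.

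Genes of resting fibroblasts were present beside the contractile ones. Of 29 listed, 26 were expressed, and the 29 summed to 1834, 1737 and 2814 RPKM, so that culture 3 lay 1.58-fold above the mean of the other 2 cultures. Culture 3 was the highest for 23 of the 26, and for 21 of them after TMM scaling. Over all expressed genes it was the highest for 54.1%, and after TMM scaling for 38.2%. Gas6, Igfbp6, Sfrp1, Ly6a and Dpt led the list, and Dpt, dermatopontin, was at 119, 71.4 and 164 RPKM. Igfbp5 was one of the members for which culture 3 was not the highest, at 26.2, 12.2 and 12.6 RPKM, with culture 1 highest. Culture 3 was the lowest for 1 of the 26, and for 3 after TMM scaling. Pi16, a marker of universal fibroblasts, was low at 2.48, 2.09 and 2.71 RPKM.

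Proliferation genes were low in every culture and lowest in culture 3. The 34 cell cycle genes summed to 355, 448 and 242 RPKM. Culture 3 was the lowest for all 33 expressed members, under TMM scaling too, and 17 were at least 2-fold below both other cultures, as were 0.745% of all expressed genes. Mki67, the proliferation antigen, was at 5.04, 6.79 and 2.20 RPKM, Top2a, the topoisomerase of chromosome segregation, at 14.3, 20.6 and 7.03 RPKM, and Ccnb2, cyclin B2, at 4.71, 6.89 and 2.15 RPKM. E2f1 was even, at 16.5, 16.2 and 16.0 RPKM. Among the inhibitors of the cycle, Cdkn1a, which encodes p21, was at 233.6, 232 and 293 RPKM, Cdkn2a, which encodes p16 and ARF, at 64.4, 66.6 and 82.8 RPKM and Cdkn2b, which encodes p15, at 63.8, 66.5 and 72.1 RPKM.

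**Figure D3:**
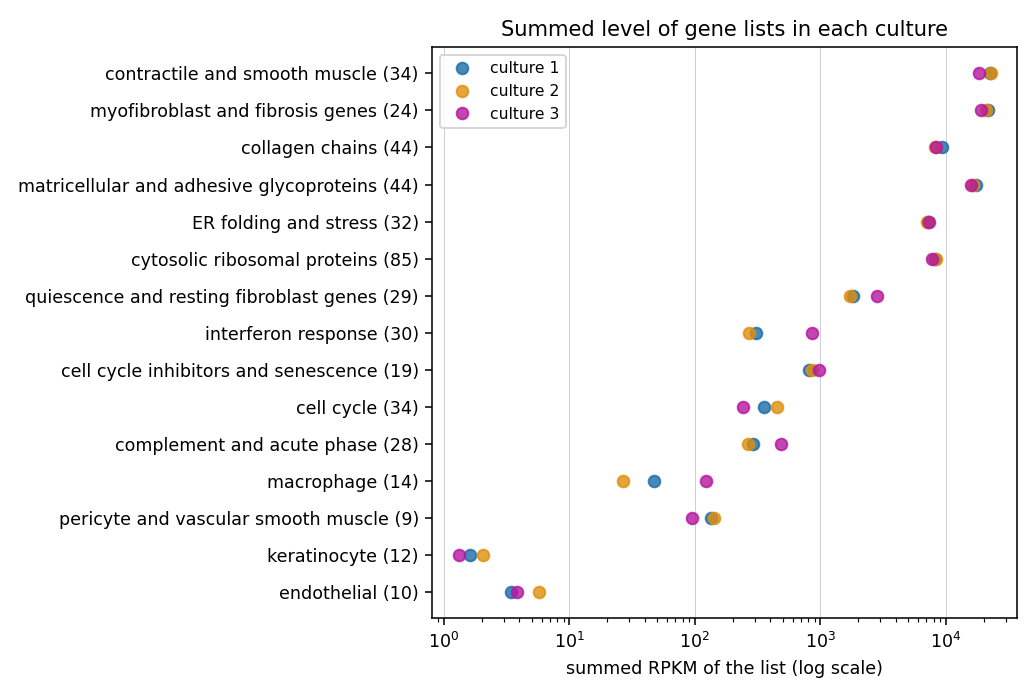
The summed RPKM of 15 gene lists is plotted on a logarithmic axis with 1 point for each culture and the number of genes matched in parentheses. Culture 3 lies to the right of the others for interferon, resting fibroblast, complement and macrophage genes and to the left for the cell cycle and, by less, for contractile genes.

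The secretory machinery was well expressed. All 32 genes of endoplasmic reticulum folding and collagen modification were at least at 10 RPKM, and 14 exceeded 100 RPKM. None varied 2-fold, near the 1.56% and 1.39% of all genes at 10 to 100 and 100 to 1000 RPKM that did. Serpinh1 was at 1222, 1206 and 1238 RPKM, Calr, calreticulin, at 885, 866 and 872 RPKM, Hsp90b1, GRP94, at 829, 845 and 894 RPKM, and P4hb, a subunit of prolyl hydroxylase, at 657, 619 and 611 RPKM. Serpinh1, Calr and Pdia3 were also among the 10 most abundant genes whose highest culture exceeded the lowest by less than 5%, a limit met by 1102 genes (10.4%), together with Dstn, Hsp90ab1, Emp1, Cd81, Pdia6, Pkm and Myl6. Sterol synthesis genes were moderate, with 19 of 22 above 10 RPKM and none with a mean above 100, and Sqle, squalene epoxidase, was at 67.6, 62.1 and 64.6 RPKM.

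In the redox list Hmox1, haem oxygenase 1, was highest, at 316, 261 and 469.8 RPKM, followed by the glutathione peroxidases Gpx3 (382, 293 and 305 RPKM) and Gpx1 (218, 243 and 216 RPKM). Nqo1, an NRF2 target, was at 25.2, 34.2 and 51.3 RPKM, the only expressed gene of the list that varied 2-fold. Nox1, Nox3 and Duox2 had at most 3 counts in every culture. Cyba, the p22phox partner of Nox4, which was added after its value was seen, was at 90.7, 87.1 and 91.7 RPKM, well above Nox4. Cybb, the phagocyte NADPH oxidase, was at 0.201, 0.0873 and 0.995 RPKM, highest in culture 3.

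Glycolytic genes were led by Aldoa (315, 304 and 329 RPKM), Pkm (275, 275 and 279 RPKM) and Ldha (266, 253 and 244 RPKM). Gapdh, singled out after its value was seen, was at only 5.82, 6.01 and 8.16 RPKM. Reads that mapped to several places had been discarded, and 41.6% of the 50-base words of Gapdh were found in no annotated transcript of another locus, where the value was 100% for Col1a1. Ribosomal protein genes ranged from 0 to 958 RPKM, and 74 of 85 had under 90% such unique words. Rplp1 was at 979, 988 and 907 RPKM, and Rps29 stood at 0.657, 1.48 and 1.53 RPKM on 9, 22 and 24 counts. The part of discarded reads in the levels of Gapdh and of these genes was not tested, and Rplp1 was the highest with 40% unique words.

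Markers of the dermal layers were uneven. Of 14 reticular and hypodermal markers 12 were expressed and 8 exceeded 100 RPKM, among them Mgp, matrix Gla protein (146, 96.4 and 196 RPKM), Mfap5 (208, 167 and 193 RPKM) and Plac8 (133, 143 and 179 RPKM). Of 13 papillary markers only Lrig1 (19.7, 18.3 and 16.2 RPKM), Crabp1 (10.2, 14.4 and 5.97 RPKM), Ntn1 (3.95, 3.67 and 7.03 RPKM) and Apcdd1 (1.83, 1.38 and 3.08 RPKM) were expressed. Dpp4 was at 0.330, 0.239 and 0.372 RPKM and Lef1 at 0.146, 0.180 and 0.127 RPKM. Of the 12 dermal papilla and sheath markers 6 were expressed, Fgf7, keratinocyte growth factor, at 81.5, 68.0 and 71.2 RPKM and Itga8 at 45.3, 41.3 and 46.4 RPKM, while Sox2 (0.0554, 0.0382 and 0.0482 RPKM) and Corin were near 0. The Y-linked genes Eif2s3y (27.6, 25.9 and 30.4 RPKM), Ddx3y, Uty and Kdm5d were expressed in all 3 cultures.

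Markers of other skin cells were mostly absent, apart from part of the pericyte and smooth muscle, adipocyte and macrophage lists. None of 12 keratinocyte markers was expressed. Krt1 and Dsg3 had no count, Krt5 was at 0.0518, 0.0239 and 0.0677 RPKM and Krt14 at 0.0671, 0.0309 and 0.161 RPKM. The 10 endothelial markers summed to 3.45, 5.70 and 3.82 RPKM, with Pecam1 at 0.0617, 0.133 and 0.0597 RPKM. Lymphocyte and mast cell markers summed to 0.583, 0.606 and 0.453 RPKM, and Cd3e, Cd8a and Ms4a1 were at 0. Tyr, Tyrp1 and Dct, the enzymes of melanin synthesis, had no count, nor had the muscle stem cell factor Pax7 or the adipokine Lep. Of 12 adipocyte markers 5 were expressed. Lpl, lipoprotein lipase, was at 20.4, 13.9 and 18.8 RPKM, but Adipoq was at 0.0206, 0 and 0.233 RPKM. Of 9 pericyte and vascular smooth muscle markers 5 were expressed, among them Mcam at 75.3, 79.3 and 47.7 RPKM. Myh11 and Des, given above with the contractile genes, were also among the 5. The pericyte markers Rgs5 (mean 0.338 ± 0.123 RPKM) and Kcnj8 (mean 0.0803 ± 0.0570 RPKM) were under 1 RPKM. Of 12 skeletal muscle markers 2 were expressed, with the skeletal actin Acta1 at 59.0, 95.3 and 41.0 RPKM.

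Macrophage markers were low but uneven. The 14 markers summed to 46.9, 26.5 and 122.8 RPKM, and 7 were expressed. Culture 3 was the highest for all 7, under TMM scaling too, where it was the highest for 54.1% of all expressed genes, or 38.2% after TMM scaling. Lyz2, lysozyme, made up most of the sum, at 33.7, 18.0 and 90.8 RPKM. Tyrobp, a signalling adaptor, was at 2.58, 1.67 and 7.23 RPKM, Cd68 at 1.99, 1.44 and 6.18 RPKM, Adgre1, the antigen F4/80, at 1.04, 0.543 and 3.89 RPKM, and Ptprc, the leukocyte antigen CD45, at 0.145, 0.0461 and 0.426 RPKM. Csf1r, the receptor of the abundant ligand Csf1, was at 3.18, 2.55 and 4.54 RPKM, and it shares 873 bases of exon with Hmgxb3 on the opposite strand. In these bulk libraries fewer cells of a type and less RNA per cell cannot be told apart.

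**Figure D4:**
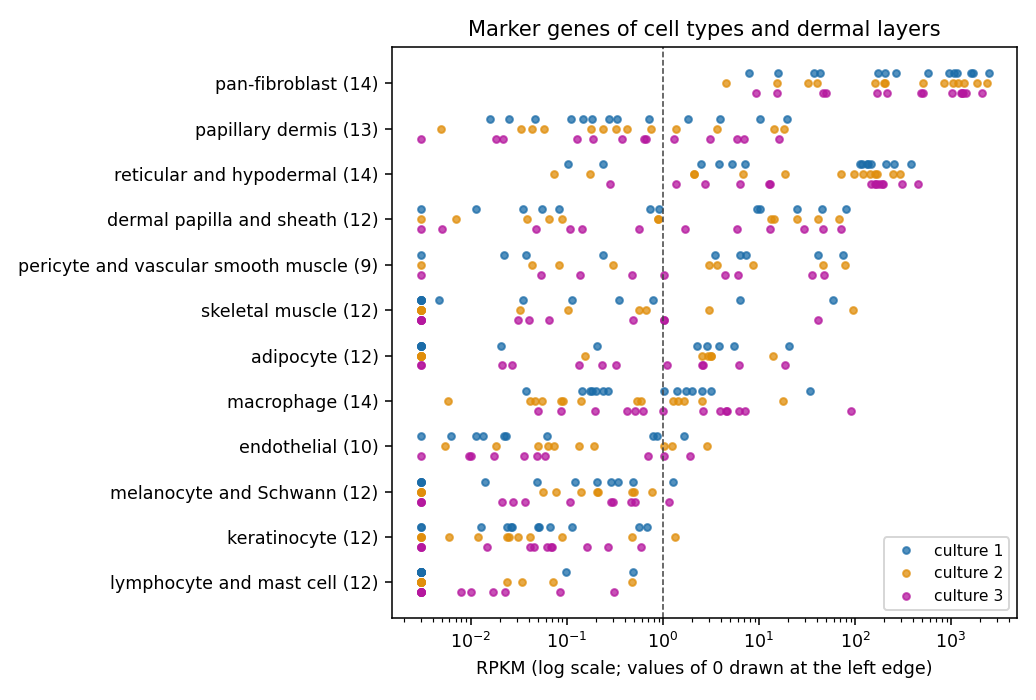
Each point is a marker gene in 1 culture on a logarithmic RPKM axis, grouped by cell type or dermal layer with the number of markers in parentheses and the limit of 1 RPKM dashed. Pan-fibroblast markers lie to the right of the limit throughout, keratinocyte and lymphocyte markers to the left apart from Ivl in culture 2, and culture 3 leads the macrophage row.

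Differences between cultures lay mainly in culture 3. It was at least 2-fold above both others for 135 genes (1.27% of 10597) and at least 2-fold below both for 79 (0.745%). With TMM-scaled library sizes the numbers were 114 and 109. At 4-fold they were 28 and 1. Culture 1 stood above both others for 5 genes (0.0472%) and below both for 9 (0.0849%), and culture 2 for 3 (0.0283%) and 12 (0.113%). The common biological coefficient of variation over expressed genes was 0.149 with all cultures and 0.0767 without culture 3. Without culture 1 it was 0.184 and without culture 2 it was 0.163.

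Interferon-stimulated genes included the 5 genes furthest above both other cultures in culture 3. Of 22 expressed members of that list 19 were at least 2-fold above both other cultures there, against 1.27% of all genes, and culture 3 was the highest for all 22, under TMM scaling too. The 30 genes of the list summed to 309, 268 and 863 RPKM. Isg15, a ubiquitin-like modifier, was at 5.88, 5.24 and 100.2 RPKM, which made it the gene furthest above both others. Oasl2, of the antiviral 2-5A synthetase family, was at 1.201, 0.903 and 16.7 RPKM, Rtp4 at 0.708, 0.615 and 9.42 RPKM, Usp18, which removes ISG15 from proteins, at 0.859, 0.992 and 12.2 RPKM, and Gbp3, an interferon-induced GTPase, at 0.605, 0.566 and 6.86 RPKM. These 5 genes were at or near the limit for expression in cultures 1 and 2, apart from Isg15. Among the more abundant members, Bst2, tetherin, was at 28.4, 25.7 and 202 RPKM and Ifi27 at 197, 159 and 262 RPKM. The factors that transmit the signal shifted with them, Stat2 at 9.52, 8.58 and 39.3 RPKM, Irf9 at 7.49, 6.52 and 21.5 RPKM and Irf7 at 1.97, 1.83 and 17.6 RPKM. The interferon-stimulated response element, shown above for Isg15 and Bst2, was present in 9 of the 17 listed expressed genes with a promoter window, in 22 of 103 windows of the genes above in culture 3, and in 3.04% of all windows. The macrophage sum was also highest in culture 3 (46.9, 26.5 and 122.8 RPKM). Its part in the interferon and complement values was not tested. In the cytokine list no interferon gene had more than 1 count in any culture. Ifnb1 and Ifng, singled out after their values were seen, had no count in any culture.

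Genes lower in culture 3 were led by Gjb2, the gap junction protein connexin 26, at 42.6, 33.9 and 6.63 RPKM. Ube2c, which acts in mitotic exit, was at 6.18, 8.71 and 1.82 RPKM, Ndc80, a kinetochore component, at 3.89, 4.75 and 1.32 RPKM, Gzme, a granzyme, at 2.30, 2.49 and 0.758 RPKM, and Des as given above. Members of the cell cycle list made up 17 of the 79, or 21.5%, and 17 of the 33 expressed members, against 0.745% of all genes. The list does not hold every cell cycle gene, and further mitotic genes were among the 79. For the listed genes culture 2 was above culture 1 as well, as for Plk1, a mitotic kinase (5.76, 9.15 and 2.31 RPKM), Aurka (7.07, 10.1 and 2.72 RPKM) and Ccna2, cyclin A2 (6.53, 9.09 and 2.56 RPKM). The motif CCAAT, shown above for Ccnb2, was present in 21 of the 27 expressed cell cycle genes with a window, in 32 of 62 windows of the genes below in culture 3, in 36.9% of the windows of all expressed genes and in 34.5% of all windows. Ube2c and Ccna2 share 592 and 510 bases of exon with Tnnc2 and Exosc9 on the opposite strand, and 79.4% of the 50-base words of Gzme were unique to it.

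**Figure D5:**
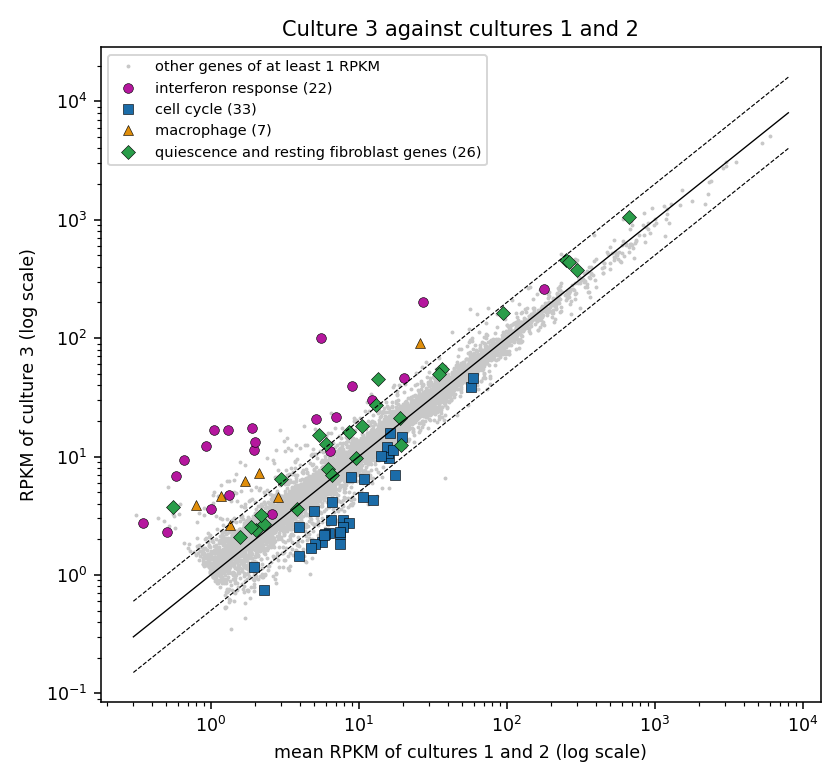
Each expressed gene is placed by its mean RPKM in cultures 1 and 2 and its RPKM in culture 3, both on logarithmic axes, with the line of equality solid and 2-fold lines dashed. Interferon genes (22) lie above the line, with Isg15 and Bst2 furthest among the more abundant, cell cycle genes (33) lie below it, and macrophage (7) and most resting fibroblast genes (26) lie above it.

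Few genes set cultures 1 and 2 apart. In culture 1 the genes above both others were Aldh1a2, a retinoic acid synthesising enzyme (23.4, 8.78 and 5.41 RPKM), Brinp3 (1.96, 0.689 and 0.759 RPKM), Des, Igfbp5 and Lrrc15. Those furthest below both others were Ifit1, an interferon gene (0.686, 1.95 and 16.7 RPKM), Perp, a desmosomal and p53 target gene (3.11, 8.55 and 8.996 RPKM), Clu, clusterin (0.729, 1.75 and 1.93 RPKM), Ifit3b and Rps29. In culture 2 the 3 genes above both others were Gm17720, on only 0, 4 and 1 counts, Gm47283 and Esm1, an endothelial and tumour-associated proteoglycan (1.74, 3.89 and 1.53 RPKM). The 5 furthest below both others in culture 2 were Fcer1g (1.75, 0.596 and 4.64 RPKM), Oas1a (0.740, 0.278 and 2.30 RPKM), C1qb (4.40, 1.83 and 13.5 RPKM), Trem2 (1.44, 0.620 and 4.75 RPKM) and Lilrb4a (1.61, 0.730 and 5.78 RPKM), of which all but the interferon gene Oas1a are genes of myeloid cells. Of the 50-base words of Oas1a and Lilrb4a 42.4% and 71.5% were unique to them.

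Spread depended on level. The median coefficient of variation over the 3 cultures was 9.77% for genes between 1 and 10 RPKM, 5.83% between 10 and 100, 6.44% between 100 and 1000 and 8.76% for the 22 genes above 1000. Counting error alone gave 4.16%, 1.96%, 0.776% and 0.225% at these levels. The share of genes that varied at least 2-fold fell from 6.72% in the lowest of these ranges to 1.56% and 1.39% in the next, and none of the 22 did.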

How the data were processed

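RNA-seq of 3 WT control cultures was analysed, grouped by the labels. Libraries were single-end with 50 nt reads. The authors deposited raw read counts per gene; the submitters' processing notes and the methods name CASAVA 1.8.2, STAR 2.4 and featureCounts 1.4.6, and reads mapping to several places were discarded. Whether counting used strand is not given in the sources used here. Total counts ran from 35118344 to 40320099 per culture, and counting floors cover counting error only. RPKM was computed from the deposited counts, the total count and the merged exon length of protein-coding transcripts (all transcripts for 457 genes without one), in Python 3.11.15 with pandas 2.3.3. Library scaling and the common biological coefficient of variation came from edgeR 4.0.16 in R 4.3.3, with DESeq2 1.42.0 size factors as an alternative, and were tested on simulated data. No group was compared and no test was run, so every value is a description of 3 samples whose spread may be technical.

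A culture was set apart for a gene when it was at least 2-fold above or below both others. Genes were named where they were among the 20 most abundant, the 5 highest of a list, members of a list of 15 or fewer, varied at least 2-fold within a list, had 3 counts or fewer within a list, or were the 5 furthest apart in a culture, with a few others as background to these. The members and the 48 gene lists were chosen with earlier results of these data known. Promoter windows were 250 bases before the RefSeq start. Mitochondrially encoded genes and Xist were not analysed here, and a few genes, 1 of them among the 20 most abundant, are not reported here.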

Additional observations from a re-analysis of the deposited data

How the results depend on the processing

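Of 74 alternative values, 54 stayed near the reported one and 20 moved. Ranking by counts kept 12 of the 20 most abundant genes. Lengths from all transcripts gave 2092 RPKM for Col1a1 and 38.2 RPKM for Prrx1, and TPM, another scale, gave 7512 for Col1a1, 18418 for Acta2, 129 for Pdgfra and 139 for Prrx1. Genes varying 2-fold numbered 165 at a limit of 5 RPKM, 2233 with no filter beyond a count in every culture, 1197 at 1.5-fold and 67 at 4-fold, and between 42 and 375 when a culture was left out, the 42 being without culture 3. Genes apart at a limit of 5 RPKM numbered 6, 4 and 81 for cultures 1, 2 and 3, and at 4-fold 1, 1 and 29. The biological coefficient of variation ranged from 0.0767 to 0.184 when a culture was left out. TMM scaling took the share of genes apart in culture 3 that were above from 63.1% to 51.1%. Dividing by the number of unique 50-base words instead of length, chosen after seeing the data, kept 18 of the 20 most abundant genes and gave 10698 expressed genes. The alternative without mitochondrially encoded genes was not run because none was analysed here. No paired analysis was possible because no groups were compared. The cause of these changes was not tested. At 3 counts a gene of 2 kb stands at 0.0372 to 0.0427 RPKM, and lower levels were not resolved.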
